A study of Rattus norvegicus with 2 samples.

Results

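Wnt signalling genes were described in rat embryonic stem cells, a pluripotent cell line, through 53 genes that act at the cell surface, in the secretory route or directly below the receptors. The genes were chosen by symbol from the 23282 genes of the deposited expression table, and none was chosen by its level. They were 19 Wnt ligands, 2 genes needed for ligand secretion (Porcn and Wls), 10 rows with a Frizzled receptor symbol, the co-receptors Lrp5 and Lrp6, the 3 receptors Ror1, Ror2 and Ryk, 3 Dishevelled proteins, 10 secreted antagonists (Dkk, Sfrp, Frzb and Wif1) and 4 R-spondins. Total RNA came from 2 wild-type samples of the Dark Agouti line DA-EC8/Rrrc, which the series calls biological replicates. Both samples were at passage 30 with a normal karyotype and were grown in 2i medium with no treatment, so the data form 1 group and no contrast between conditions. Both samples are of 1 cell line, and the labels do not say whether the cultures were grown apart, so the spread between them may be technical.

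Wnt proteins are lipid-modified signals that Porcn acylates and Wls carries to the cell surface. They bind a Frizzled receptor together with Lrp5 or Lrp6, Dishevelled proteins are recruited to the complex, and beta-catenin is spared from degradation by a complex that contains the kinase GSK3. Ror and Ryk receptors take other branches of the pathway. Dkk proteins such as Dkk1 block Lrp5 and Lrp6. Sfrp, Frzb and Wif1 bind Wnt proteins outside the cell, and R-spondins keep Frizzled receptors at the surface. As background, 2i medium holds inhibitors of MEK and of GSK3, and GSK3 acts below the ligands and receptors described here.

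The cells carried the receiving side of the pathway at higher levels than the ligands. Levels are in RPKM, read counts scaled by gene model length and by library size, and a gene is called detected at a mean of 1 RPKM or more. Of the 53 genes 18 were detected, 34.0%, set beside 46.4% of all genes in the table. Of the 53 genes 10 were at 10 RPKM or more, set beside 29.4% of all genes. Another 16 of the 53 genes, 30.2%, were listed at 0 in both samples, set beside 38.2% of all genes. These shares describe the list and were not tested. In bulk RNA, fewer cells expressing a gene and less RNA per cell cannot be told apart. All 3 Dishevelled genes, both Lrp co-receptors and both secretion genes were detected, as were 6 of 10 Frizzled rows and 2 of the 3 Ror and Ryk receptors. By contrast, 1 of 19 ligands, 2 of 10 secreted antagonists and 0 of 4 R-spondins were.

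Sample depth limits the low values. Steps in the values point to 2991184 reads behind sample 1 and 3050685 reads behind sample 2. For a 2-kb model, 3 reads amount to 0.501 RPKM in sample 1 and 0.492 RPKM in sample 2, so transcription under that limit could be listed as 0. Marker lists were chosen with earlier results of these data known, so their counts are no independent test of cell identity. All 11 embryonic stem cell markers listed were detected, from 7.06 RPKM for Klf4 to 655 RPKM for Utf1. Of 14 fibroblast and feeder markers 3 were detected (Col1a1, Col3a1 and Thy1), and Col1a2, S100a4, Twist2, Lum and Acta2 were at 0. That list summed to 6.61 RPKM in sample 1 and 12.5 RPKM in sample 2. Markers of endoderm (1 of 8 detected), primitive streak and mesoderm (2 of 8) and neuroectoderm (2 of 5 measured) were mostly under 1 RPKM, although Eomes was at 21.9 ± 0.533 RPKM (SD, n = 2).

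**Figure D1:**
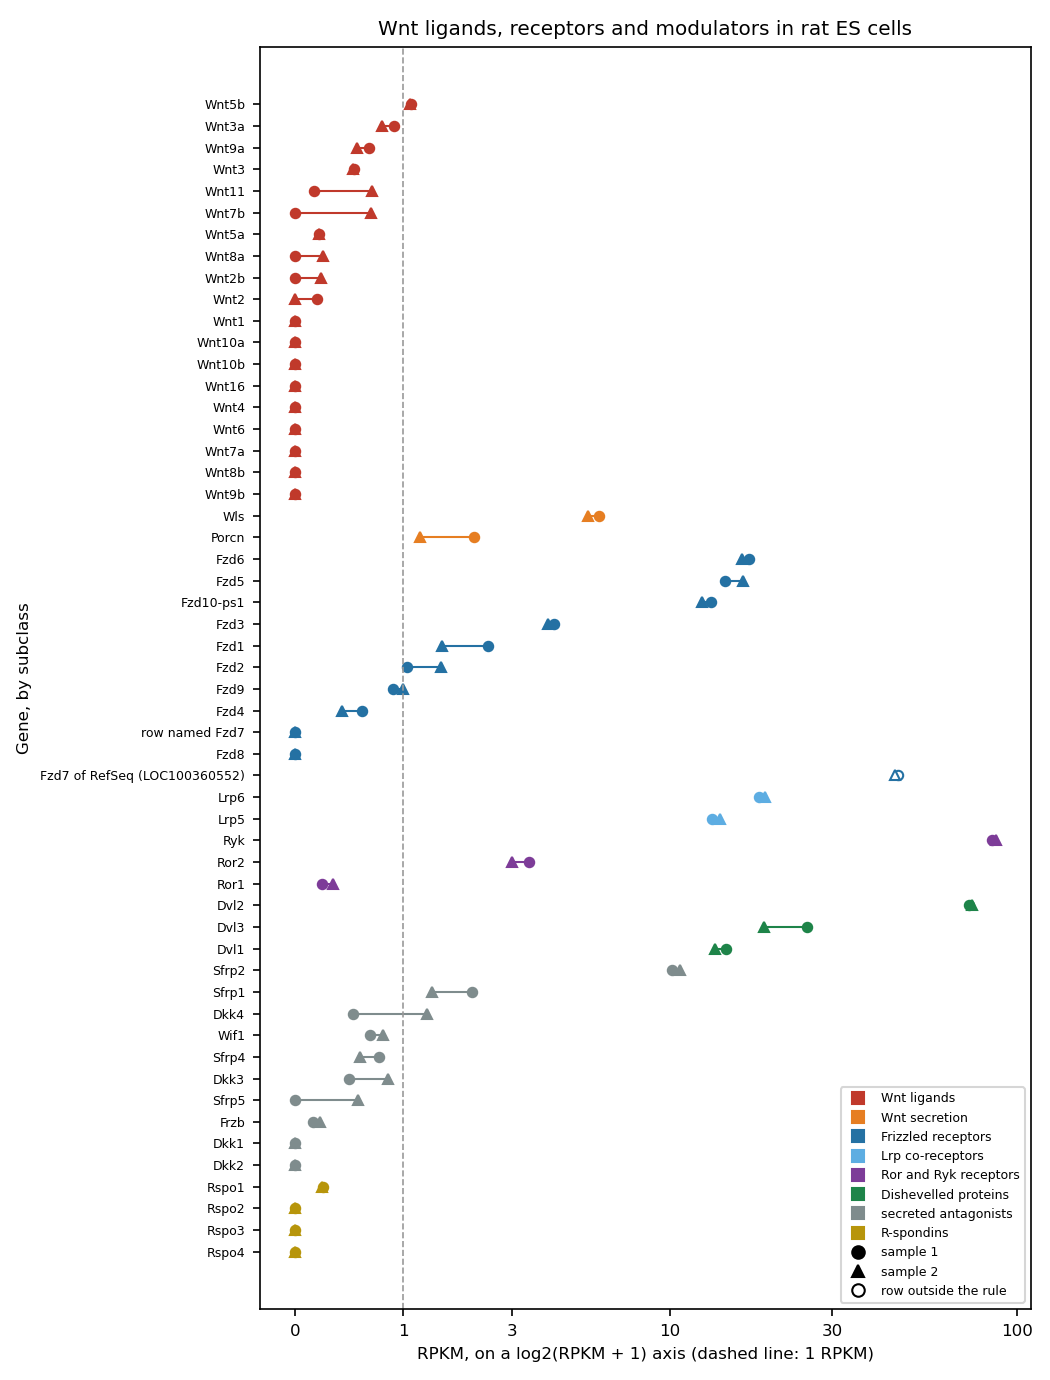
Level of each Wnt gene in sample 1 (circles) and sample 2 (triangles), in RPKM on a log2(RPKM + 1) axis, grouped by subclass and sorted within it. Dishevelled, Lrp and Ryk genes lie at the right, 18 of the 19 ligands lie under the dashed line at 1 RPKM, and the open symbols mark the row that RefSeq names Fzd7, at 46.4 and 45.4 RPKM.

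Promoter windows from RefSeq (GRCr8, 250 bases before to 50 after the gene's start) are shown for 4 genes, since CpG content was a feature that low and high genes of the pathway shared. Each is written 5′ to 3′ on the gene's strand, with every CpG dinucleotide in capitals. Ryk was the highest of the 53 genes, the second is the gene RefSeq calls Fzd7, and Wnt4 and Dkk1 were listed at 0 with many and few CpGs.
Ryk, chr8:112297931-112298230, plus strand: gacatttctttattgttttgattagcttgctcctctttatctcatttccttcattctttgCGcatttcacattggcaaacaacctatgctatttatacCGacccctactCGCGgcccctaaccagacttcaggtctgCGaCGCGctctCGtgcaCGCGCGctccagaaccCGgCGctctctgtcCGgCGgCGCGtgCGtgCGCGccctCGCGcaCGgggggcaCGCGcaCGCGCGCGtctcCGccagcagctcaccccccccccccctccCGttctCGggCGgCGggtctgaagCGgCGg
Fzd7 of RefSeq, chr9:68425288-68425587, plus strand: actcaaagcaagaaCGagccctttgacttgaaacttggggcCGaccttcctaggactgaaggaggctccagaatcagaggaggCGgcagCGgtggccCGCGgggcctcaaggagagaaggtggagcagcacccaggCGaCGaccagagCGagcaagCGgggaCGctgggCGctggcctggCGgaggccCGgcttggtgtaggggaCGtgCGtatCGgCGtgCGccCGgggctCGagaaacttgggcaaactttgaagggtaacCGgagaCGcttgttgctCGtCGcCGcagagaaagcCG
Wnt4, chr5:154797200-154797499, plus strand: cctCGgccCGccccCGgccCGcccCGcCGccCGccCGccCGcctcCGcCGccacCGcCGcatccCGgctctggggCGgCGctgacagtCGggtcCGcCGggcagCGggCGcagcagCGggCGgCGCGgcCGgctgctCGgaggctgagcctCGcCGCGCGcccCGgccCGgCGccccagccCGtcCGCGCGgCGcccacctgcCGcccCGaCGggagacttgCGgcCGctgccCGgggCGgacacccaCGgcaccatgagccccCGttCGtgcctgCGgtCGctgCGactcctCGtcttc
Dkk1, chr1:237798601-237798900, minus strand: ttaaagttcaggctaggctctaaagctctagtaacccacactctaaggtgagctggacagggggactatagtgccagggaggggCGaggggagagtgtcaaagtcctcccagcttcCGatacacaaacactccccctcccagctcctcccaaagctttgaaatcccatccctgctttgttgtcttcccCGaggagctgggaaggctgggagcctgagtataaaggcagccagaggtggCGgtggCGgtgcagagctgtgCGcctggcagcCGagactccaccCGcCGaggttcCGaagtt
The windows of Ryk, Fzd7, Wnt4 and Dkk1 hold 36, 27, 53 and 10 CpGs in that order.

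Wnt ligands were low or at 0 in both samples. Wnt5b, a ligand known mainly for branches that do not use beta-catenin, was the only ligand to reach a mean of 1 RPKM. It was at 1.10 RPKM in sample 1 and 1.08 RPKM in sample 2 (chromosome 4, 217413755 to 217429687, minus strand; gene positions here and below are the loci of the table on rn5, with no exons given), from at least 7 reads in each sample. An exact Poisson interval at 95% for those reads runs from 0.443 to 2.27 RPKM in sample 1, and it covers counting error only. Read numbers given as at least are the fewest that fit the values. Intervals from them are at their widest, so here and below their overlap does not show that levels are equal.

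Wnt3a, Wnt3 and Wnt9a lay under the threshold. Wnt3a was at 0.883 and 0.742 RPKM in samples 1 and 2. Wnt3, needed for the primitive streak in the mouse, was at 0.455 and 0.446 RPKM. Wnt9a was at 0.601 and 0.491 RPKM. These 3 genes had reads in each sample, with at least 4 in each for Wnt3, and their counting intervals overlapped between the samples.

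Wnt11, which acts in cell movement, was at 0.129 and 0.635 RPKM, a mean of 0.382 ± 0.357 RPKM, and Wnt5a was at 0.169 and 0.165 RPKM. Wnt7b, Wnt8a and Wnt2b were at 0 in sample 1 and at 0.628, 0.194 and 0.185 RPKM in sample 2. Wnt2 was at 0.149 RPKM in sample 1 and 0 in sample 2. Each of these 4 genes can be accounted for by a single read in the sample that had any. The other 9 ligands were listed at 0 in both samples. They were Wnt1, Wnt4, Wnt6, Wnt7a, Wnt8b, Wnt9b, Wnt10a, Wnt10b and Wnt16. Together the 19 ligands summed to 3.49 RPKM in sample 1 and 4.57 RPKM in sample 2, less than Wls alone.

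Several ligand genes lie side by side in the genome. All of these had means under 1 RPKM, as did 18 of the 19 ligands and 12468 of all 23282 genes. A low level is therefore not particular to the paired ligands. Of the 53 genes, 4 pairs lay within 100 kb of each other in the table's rn5 positions, all of them ligands. Wnt3a and Wnt9a lie on opposite strands with 15469 bases between them, and their means were 0.812 and 0.546 RPKM. Wnt3 and Wnt9b are 22830 bases apart, with means of 0.451 and 0 RPKM. Wnt6 and Wnt10a were both at 0, and so were Wnt1 and Wnt10b. The table places Wnt1 on chromosome X (114975118 to 114979165 on rn5), whereas RefSeq places its promoter window on chromosome 7 of GRCr8.

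Both genes for ligand secretion were detected. Wls was at 5.98 RPKM in sample 1 and 5.51 RPKM in sample 2, a mean of 5.75 ± 0.334 RPKM (SD, n = 2). Porcn was lower, at 2.14 and 1.22 RPKM with a mean of 1.68 ± 0.648 RPKM, from at least 12 and 7 reads. Its counting intervals, 1.11 to 3.74 RPKM and 0.492 to 2.52 RPKM, overlapped.

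Frizzled receptors spanned a wide range, and the name of one row decides which of them was highest. Among rows with a Frizzled symbol, Fzd6 was at 17.3 and 16.5 RPKM (chromosome 7, 78317823 to 78349530, minus strand), a mean of 16.9 ± 0.570 RPKM. Fzd5, which pairs with Lrp5 or Lrp6 in beta-catenin signalling, was at 14.6 and 16.6 RPKM (chromosome 9, 71120245 to 71122004, plus strand), a mean of 15.6 ± 1.38 RPKM. The sample ranges of Fzd6 and Fzd5 overlapped, so their order is not set. The row named Fzd10-ps1, which RefSeq now calls Fzd10 and classes as protein coding, was at 13.3 and 12.5 RPKM, a mean of 12.9 ± 0.557 RPKM. Its values lay below both, but its counting intervals overlapped those of Fzd5.

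A lower tier followed. Fzd3, a receptor of the planar cell polarity branch, was at 4.25 and 4.05 RPKM with a mean of 4.15 ± 0.143 RPKM. Fzd1 was at 2.43 and 1.56 RPKM, from 32 and 21 reads, with a mean of 2.00 ± 0.613 RPKM. Fzd2 was at 1.05 and 1.54 RPKM, from 6 and 9 reads, with a mean of 1.30 ± 0.349 RPKM. The lowest Fzd1 value, 1.56 RPKM, was barely above the highest Fzd2 value, 1.54 RPKM, and their counting intervals overlapped. Fzd9 and Fzd4 stayed under 1 RPKM, at 0.866 and 0.991 RPKM and at 0.537 and 0.351 RPKM. Fzd8 was at 0 in both samples, and so was a separate row described as a frizzled-8-like gene on the same chromosome. How the authors treated reads that match both copies is not given in the sources used here, so the level of Fzd8 is uncertain.

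The row named Fzd7 was at 0 in both samples, but its identifier is not that of Fzd7. RefSeq assigns its Entrez identifier to Cdk15, a kinase gene. The row covers 89263 bases of chromosome 9 (65866681 to 65955943), and the paralogs that the table lists for it are 7 Cdk genes and 0 Frizzled genes. A row named LOC100360552 carries the identifier that RefSeq gives to Fzd7. It covers 2820 bases (chromosome 9, 66111942 to 66114761, plus strand), and its 13 listed paralogs include 7 of the 9 other Frizzled rows. That row was at 46.4 RPKM in sample 1 and 45.4 RPKM in sample 2, a mean of 45.9 ± 0.639 RPKM, with 391 reads in each sample and counting intervals of 41.9 to 51.2 RPKM and 41.1 to 50.2 RPKM. The read numbers were equal, so this SD reflects the library totals alone and understates the error. By identifier, Fzd7 was therefore the highest Frizzled gene, above every value of Fzd6 and Fzd5. Fzd7 is the Frizzled receptor with the best known role in human and mouse pluripotent cells.

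Taking the identifier in place of the name raised the Frizzled sum to 100.1 ± 0.838 RPKM, against 54.2 ± 0.198 RPKM for the rows as named, and Fzd7 then made up 46.0% of it in sample 1 and 45.7% in sample 2. Detected Frizzled genes became 7 of 10 and detected genes of the whole set 19 of 53. This replacement was chosen after the values were seen.

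**Figure D2:**
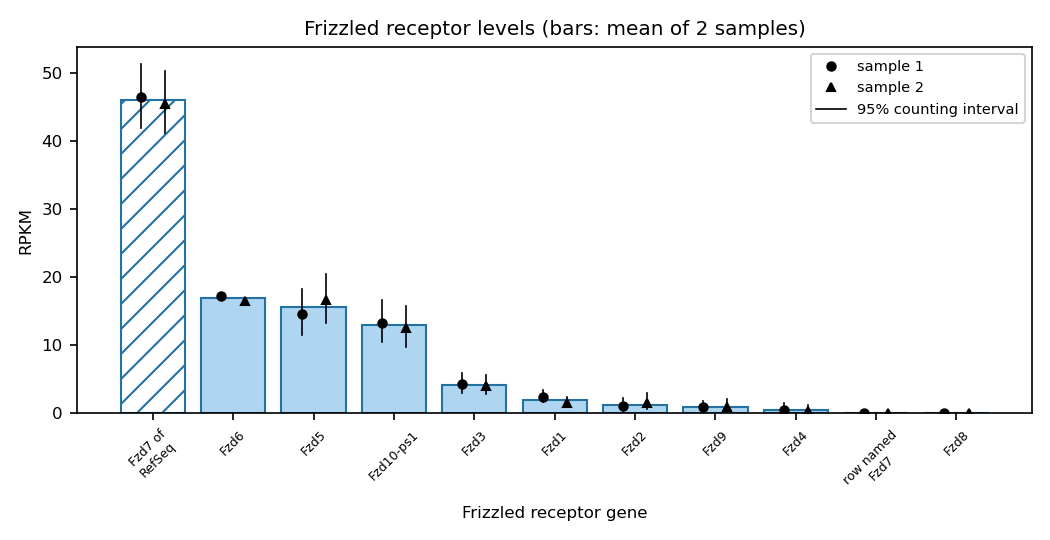
Mean level of each Frizzled gene in RPKM (bars), with sample 1 (circles), sample 2 (triangles) and 95% counting intervals (lines) where reads could be derived, which was not so for Fzd6 or for rows at 0. The hatched bar is the row that RefSeq names Fzd7, at a mean of 45.9 RPKM, above Fzd6 at 16.9 RPKM and the row named Fzd7 at 0.

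The median Frizzled row lay above the median ligand in each sample. Frizzled rows had a median of 1.74 RPKM in sample 1 and 1.55 RPKM in sample 2, against 0 for the ligands in both. On the log2(median RPKM + 1) scale the difference was 1.45 in sample 1 and 1.35 in sample 2, a mean of 1.40 ± 0.07 (SD, n = 2). This SD covers the spread between the samples and not the spread between genes. With Fzd7 taken by identifier the difference was 2.02 ± 0.13. Because the ligand median was 0, the size depends on the pseudocount and became 4.13 with 0.1 in place of 1. No test between gene classes was made, since genes are not replicates.

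Both co-receptors for beta-catenin signalling were detected. Lrp6 was at 18.4 and 19.2 RPKM, a mean of 18.8 ± 0.565 RPKM (SD, n = 2; chromosome 4, 232477066 to 232579512, minus strand). Lrp5 was at 13.4 and 14.1 RPKM, a mean of 13.8 ± 0.480 RPKM. Lrp6 was the higher in each sample, and the ranges did not overlap.

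Ryk, a Wnt receptor with an inactive kinase domain, was the highest of all 53 genes. It was at 85.1 RPKM in sample 1 and 87.3 RPKM in sample 2 (chromosome 8, 110718666 to 110790096, plus strand), a mean of 86.2 ± 1.58 RPKM. It lay above 89.5% of all detected genes. Its counting intervals, at their widest, overlapped those of Dvl2, the next in order. The related branch receptors Ror2 and Ror1, which bind Wnt5a, were far lower. Ror2 was at 3.48 and 2.99 RPKM with a mean of 3.24 ± 0.342 RPKM, and Ror1 was at 0.189 and 0.278 RPKM. Ryk held 95.9% of the summed level of the 3 receptors in sample 1 and 96.4% in sample 2.

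Dishevelled proteins, the adaptors that Frizzled receptors recruit, had the largest summed level of any of the 8 subclasses, 110.5 ± 4.19 RPKM. Dvl2 was at 73.2 and 74.7 RPKM with a mean of 74.0 ± 1.07 RPKM (chromosome 10, 56355170 to 56364388, plus strand). Dvl3 was at 25.5 and 19.1 RPKM with a mean of 22.3 ± 4.51 RPKM, the largest SD among the 53 genes. Dvl1 was at 14.7 and 13.6 RPKM with a mean of 14.2 ± 0.752 RPKM. Dvl2 was above the other two in each sample by values and counting intervals. The values of Dvl3 lay above those of Dvl1, but their counting intervals overlapped, at 14.8 to 40.8 RPKM for Dvl3 and 12.3 to 17.5 RPKM for Dvl1 in sample 1. These intervals rest on the fewest reads that fit, so their overlap does not decide the order. Dvl2 made up 64.6% of the sum in sample 1 and 69.5% in sample 2.

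Secreted antagonists were low apart from Sfrp2. Sfrp2, a soluble protein with a Frizzled-like cysteine-rich domain, was at 10.1 and 10.7 RPKM (chromosome 2, 202136233 to 202143778, plus strand), a mean of 10.4 ± 0.388 RPKM. It made up 69.7% of the summed level of the antagonists in sample 1 and 66.1% in sample 2. Sfrp1 was at 2.10 and 1.40 RPKM with a mean of 1.75 ± 0.492 RPKM. Sfrp4 was at 0.707 and 0.520 RPKM, Wif1 at 0.621 and 0.761 RPKM, and Frzb at 0.122 and 0.176 RPKM. Sfrp5 was at 0 in sample 1 and 0.494 RPKM in sample 2, which a single read can account for.

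All 4 Dkk genes had means under the threshold. Dkk4 was at 0.448 RPKM in sample 1 and 1.32 RPKM in sample 2, a mean of 0.884 ± 0.616 RPKM, and Dkk3 was at 0.413 and 0.809 RPKM. Dkk1, itself a target of beta-catenin in several tissues, and Dkk2 were listed at 0 in both samples. A separate row described as a Dkk1-like gene on chromosome 1 was also at 0, so the level of Dkk1 is uncertain in the same way as that of Fzd8.

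R-spondins were the lowest subclass. Rspo1 was at 0.196 and 0.192 RPKM, which a single read in each sample can account for, and Rspo2, Rspo3 and Rspo4 were at 0 in both samples. For Rspo1, Wnt3, Wnt5a and Wnt5b sample 1 was 1.02 times sample 2, which is the inverse ratio of the library totals. Each therefore had the same read number in both samples, and the small SD does not measure precision.

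The samples differed little in these genes, as in all detected genes. Of the 18 detected genes, 0 differed over 2-fold in RPKM + 1, set beside 0.721% of all detected genes. With a share that small, 0 of 18 shows nothing particular to these genes, and the added 1 shrinks the differences of low genes. The SD of the log2 differences was 0.216 over the 18 genes and 0.267 over all detected genes. The widest difference was that of Porcn, at -0.50 on the log2(RPKM + 1) scale (sample 2 over sample 1). Of the 18 genes 11 were higher in sample 1 and 7 in sample 2. Of all 10814 detected genes 5852 were higher in sample 1 and 4962 in sample 2, so the tilt is not particular to these genes. Among the 32 genes above 0 in both samples, Dkk4 and Wnt11 differed over 2-fold in raw RPKM, at 2.94 and 4.90 times the sample 1 value in sample 2. The share of all genes past this raw limit was not computed, so the count shows nothing particular to these genes. At least 2 and 6 reads lay behind the values of Dkk4, and at least 1 and 5 behind those of Wnt11, and the counting intervals overlapped for both. Of the 14 fibroblast and feeder markers 7 were higher in sample 2, 2 (Dcn and Pdgfrb) were higher in sample 1, and 5 were at 0 in both. Their part in these values was not tested.

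The sample values resolved the order of levels only in part. Of the 17 pairs of neighbours in the order of the 18 detected genes, 9 had sample values that did not overlap. The counting intervals of 6 of these 9 pairs overlapped in at least 1 sample, 2 pairs lacked an interval, and Dvl2 over Dvl3 was the 1 pair apart in both. Most intervals are at their widest, so an overlap does not show that the order of a pair is unresolved. Pairs whose sample values overlapped include Dvl3 with Lrp6, Fzd5 with Dvl1, Dvl1 with Lrp5, and each step from Fzd1 down to Wnt5b through Sfrp1, Porcn and Fzd2.

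Promoters of the low pathway genes were mostly rich in CpG. A promoter window was found for 38 of the 53 genes. Leaving out the row named Fzd7, whose window is that of Cdk15, 20 of 26 genes under 1 RPKM had a ratio of observed to expected CpGs of at least 0.6, 76.9%, set beside 22.0% of all genes under 1 RPKM. All 11 detected genes with a window reached this ratio, set beside 77.4% of all detected genes. Among the ligands under 1 RPKM 13 of 16 did, and their median ratio was 0.76, against 0.29 for all genes under 1 RPKM. In the sequences shown above the ratio was 1.04 for Wnt4 and 0.39 for Dkk1, both at 0, and 1.28 for Ryk and 0.90 for Fzd7. A TCF and LEF motif, CTTTGAA or CTTTGAT on either strand, occurred in the windows of 2 of the 38 genes (Wnt8a and Dkk1), 5.26%, set beside 7.59% of all windows, and in that of Fzd7. These are descriptions of sequence, and no factor binding or methylation was measured.

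**Figure D3:**
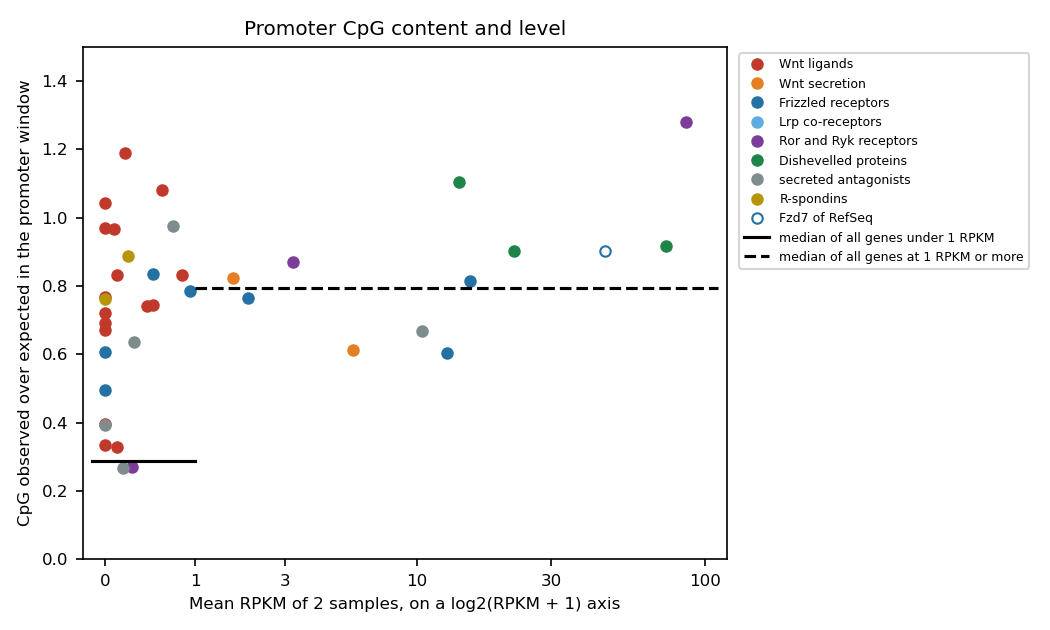
Ratio of observed to expected CpG in the promoter window of each gene (vertical axis) against its mean level in RPKM on a log2(RPKM + 1) axis. At the left, 13 of 16 ligands have a ratio of at least 0.6, above the solid line at the median of all genes under 1 RPKM, 0.29. The dashed line is the median of all detected genes, 0.79, and the Frizzled point at 0.49 is the window of Cdk15.

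Other genes of Wnt signalling were read from lists that hold no member of the set. Inside the cell 23 of 24 genes were detected, 95.8%, set beside 46.4% of all genes. The list median was 20.6 ± 0.795 RPKM (SD, n = 2), set beside a median of 0.536 ± 0.0284 RPKM over all genes. Ctnnb1, which encodes beta-catenin, was highest at 442 ± 1.66 RPKM. It was followed by the kinase gene Csnk1a1 at 158 ± 0.0312 RPKM, by Tcf7l1, a TCF factor known as a repressor, at 143 ± 9.13 RPKM, and by Lef1 at 114 ± 2.93 RPKM. Pygo1 (1.71 ± 1.28 RPKM) and Apc2 (0.501 ± 0.0177 RPKM) were lowest. Wnt cargo trafficking had all 9 of its genes above the threshold, set beside the same 46.4%, and a median of 66.6 ± 0.927 RPKM. Tmed2 (155 ± 0.959 RPKM), Tmed10 (144 ± 1.65 RPKM), Atp6ap2 (107 ± 6.26 RPKM) and the retromer gene Vps35 (80.6 ± 2.40 RPKM) were highest, and Vps26b (35.0 ± 0.324 RPKM) and Tmed5 (14.5 ± 0.0729 RPKM) lowest.

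Receptors for R-spondins were uneven. Lgr4 was at 40.8 ± 1.44 RPKM, while Lgr5 and Lgr6 were listed at 0. The ubiquitin ligases that remove Frizzled receptors were both detected, Znrf3 (a row matched by identifier) at 4.92 ± 0.149 RPKM and Rnf43 at 1.62 ± 0.276 RPKM. Of 17 other extracellular and surface modulators 10 were detected, 58.8%, set beside 46.4% of all genes. The heparan sulfate proteoglycan gene Gpc4 was at 128 ± 0.723 RPKM and Gpc1 at 39.5 ± 2.69 RPKM, the co-receptor gene Ptk7 at 60.04 ± 0.774 RPKM and Dkkl1 at 31.0 ± 1.98 RPKM. Sost, Sostdc1 and Ndp, which bind Lrp co-receptors or Frizzled receptors, were at 0.

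Of 16 planar cell polarity genes 11 passed the threshold, 68.8%, set beside 46.4% of all genes. Their list median was 1.99 ± 0.102 RPKM. Scrib (67.4 ± 5.07 RPKM), Dact2 (37.7 ± 0.944 RPKM), Celsr1 (27.5 ± 2.81 RPKM) and Vangl1 (18.2 ± 0.880 RPKM) were highest. Prickle1 was at 0.149 and 0.219 RPKM and Daam2 at 0.109 RPKM and 0. Of 12 target genes 7 passed the threshold, 58.3%, set beside the same 46.4%, and the list median was 1.72 ± 0.157 RPKM. After Lef1 the highest were Tcf7 (15.9 ± 0.924 RPKM), the feedback gene Axin2 (11.9 ± 0.391 RPKM) and Myc (6.50 ± 0.290 RPKM), and the lowest were Lgr5 and Notum, which was at 0.164 RPKM and 0. The lists are not separate. Lef1, Tcf7 and Axin2 are also in the list of genes inside the cell, and Nkd1, Lgr5 and Notum are also in other lists.

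**Figure D4:**
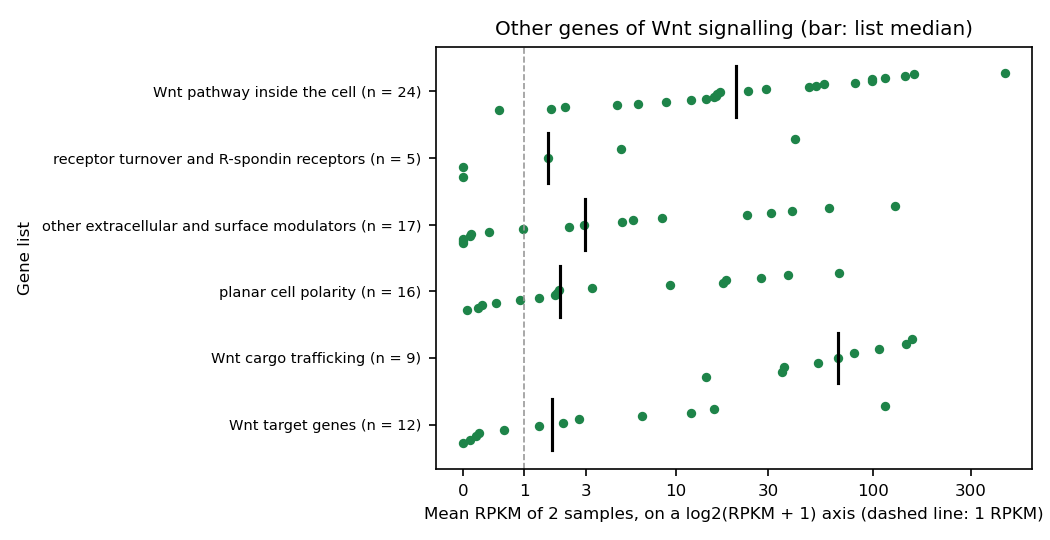
Mean level of each gene in 6 lists of other Wnt signalling genes (points), in RPKM on a log2(RPKM + 1) axis, with the median of each list as a black bar. The lists for genes inside the cell and for cargo trafficking have medians of 20.6 and 66.6 RPKM, and the other 4 lie between 1.62 and 2.93 RPKM. Lef1, Tcf7, Axin2, Nkd1, Lgr5 and Notum are each plotted in the target list and in another list.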

How the data were processed

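Libraries of 2 wild-type samples were read as 50-bp pairs. RPKM values are as the authors deposited them, in a single table whose columns were matched to samples by title. CASAVA 1.8, TopHat 1.4.0 and the builds rn5 and Rnor_5.0 are named in the submitters' processing notes. No counting tool is named there, and how multi-mapping reads were handled is not given in the sources used here; that choice could lower genes with near copies. The 23716 rows were joined by Entrez identifier into 23282 genes by summing rows; none of the 53 members had several rows.

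Levels are means ± SD over 2 samples, and differences are on the log2(RPKM + 1) scale, on which low genes change less. With 1 group no test was made. Read totals are those that made the most rows with a locus under 6000 bp whole (527 of 2700 in sample 1, 525 of 2688 in sample 2, relative tolerance 3e-07). Reads behind a member use its locus, or else the shortest length from 60 bp to 20000 bp that gave whole reads, so they are minimum numbers and the intervals the widest; a length was found for 34 of the 37 members above 0. Intervals are exact Poisson at 95% for counting error only. RefSeq GRCr8 tables gave names, for 21063 identifiers, and promoters (first window listed per gene). Every member is accounted for; members at 1 RPKM or more are given in full, and of each pathway list up to 4 highest and 2 lowest genes are named. Gpr124 and Sox1 were not analysed here. Members and lists were chosen with earlier results of these data known. Alternatives were other detection minimums, pseudocounts, scalings and row rules, and each sample alone. The read derivation was tested on simulated whole read numbers, so that test cannot show that the deposited values come from whole reads. Scripts ran in Python 3.11.15 with scipy 1.17.1, pandas 2.3.3, numpy 2.4.6, and matplotlib 3.10.9 for figures.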

Additional observations from a re-analysis of the deposited data

Results flagged for a closer look

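A signal lay in a row that the choice of genes by symbol does not take. The row named LOC100360552, which RefSeq calls Fzd7, had a mean of 45.9 ± 0.639 RPKM (SD, n = 2), while the row named Fzd7 was at 0. With 391 reads in each sample it is far above the 3 reads that a count of 0 allows.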

How the results depend on the processing

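Of 86 values recomputed with both samples, 60 stayed within the spread between samples or within 1.5 times the count. The 60 include every value from keeping the highest row of each gene. That setting could change nothing, since none of the 53 genes had several rows, so the 60 overstate how stable the results are. Leaving out a sample is no check of the levels, since with 2 samples each lies within 1 SD of their mean. Sample 1 alone gave 18 detected genes and sample 2 alone 19, with 2 and 3 antagonists. A detection minimum of 0.3 RPKM gave 29 detected genes, 6 of them ligands and 6 antagonists. A minimum of 3 RPKM gave 0 ligands, 1 secretion gene, 1 antagonist, 7 planar cell polarity genes and 4 target genes. Rescaling each library to a sum of 1000000 gave 4 ligands and 6 antagonists at 1 or more, a median over all 53 genes of 1.04, and a difference of Frizzled rows over ligands of 2.25. It gave summed levels of 9.22 for ligands, 17.0 for secretion genes, 124 for Frizzled rows, 74.6 for Lrp, 205 for Ror and Ryk, 253 for Dishevelled, 35.2 for antagonists and 0.444 for R-spondins, because the deposited values sum to less. The median over the 53 genes, 0.454 RPKM, became 1.17 RPKM with only genes at 0.1 RPKM or more and 5.92 RPKM as a mean. The Frizzled over ligand difference was 4.13 with a pseudocount of 0.1, 1.63 with means of log2 values and, with Fzd7 taken by identifier, 2.02, where the Frizzled sum was 100.1 RPKM; this last choice was made after the data were seen. No paired analysis was possible because the series has 1 group. Depth limits all values under about 0.5 RPKM.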

Other observations

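Names in the table differ from RefSeq elsewhere too. Of 21063 identifiers found in RefSeq, 5969 carry another symbol there, and for 2567 of these the symbol of the table is not among the listed synonyms. Of the 53 genes chosen by symbol, the row named Fzd7 was the one case of this kind, and Fzd10-ps1 is a listed synonym of Fzd10.

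Among markers matched by identifier rather than by name, Zfp42, a marker of naive pluripotency, stood under the name LOC100361947 at 121 RPKM in sample 1 and 103 RPKM in sample 2. The table names Tcf7l1 as Tcf3, its older symbol, which is also that of another gene.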
